A study of Rattus norvegicus with 10 samples.

Results

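The small intestine takes conjugated bile acids back up at its far end, the ileum, and returns them to the liver. Slc10a2 encodes the apical sodium-dependent transporter (ASBT) that brings bile acids into the enterocyte, Fabp6 the ileal bile acid binding protein inside the cell, and Slc51a and Slc51b the 2 subunits of the transporter OSTα/OSTβ on the basolateral side. Nr1h4 encodes the farnesoid X receptor (FXR), a nuclear receptor activated by bile acids, and Nr0b2 the small heterodimer partner (SHP), a repressor that FXR induces. Fabp6 and Slc10a2 are known as genes of the ileum and are far lower in jejunum, so in a piece of jejunum their levels also carry information on how near to the ileum the piece lay. The members were these 6 genes, and they were taken as every probe set of the value table with one of these symbols in the platform annotation.

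The rule gave 5 of the 29559 probe sets, 1 probe set each for Fabp6 (1368697_at), Slc10a2 (1368745_at), Slc51a (1378288_at), Nr1h4 (1369073_at) and Nr0b2 (1368376_at). No probe set carried the symbol or the gene identifier of Slc51b, and that gene was not analysed here. Messenger RNA was measured in jejunum of 10 male Sprague Dawley rats, with 1 Affymetrix RAE230 array per rat. All rats were dosed orally for 5 days and, by the methods of the study, fasted overnight after the last dose. The vehicle group (3 rats) received 0.2% HPMC (hydroxypropyl methylcellulose) at 10 ml/kg/day, and the other groups received A-998679, an experimental compound that the study examined as an activator of the aryl hydrocarbon receptor, at 30 mg/kg/day (2 rats), 100 mg/kg/day (3 rats) or 200 mg/kg/day (2 rats). Further rats that the study describes were not analysed here. The labels give a weight of 176 to 200 g (the methods of the study give a higher one), no age, and no place along the jejunum at which the piece was cut. Each rat is a separate animal, and each sample is a piece of whole gut wall, in which fewer cells of a type and less RNA per cell cannot be told apart.

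The arrays were alike in overall brightness, with medians between 58.2 and 59.9 intensity units (5.86 to 5.90 on the log2 scale) and between 11.0% and 11.3% of probe sets blank. Precision was limited by the number of arrays. All 13 enterocyte markers measured passed the filter on dim probe sets, among them Vil1, the brush border protein villin, between 11.71 and 12.16 (log2). Pancreas markers were low, with 1 of 10 measured (Cela1) past the filter. Liver transcripts were present and uneven: albumin (Alb) lay between 6.41 and 11.43 (log2), highest in vehicle rat 1.

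Bile acid activated FXR binds DNA together with RXR, by preference at an inverted repeat of the half-site AGGTCA spaced by 1 base. The promoters of Fabp6 and Slc51a are shown because they belong to the members that varied most and least among these rats. Both are from RefSeq (build GRCr8), written 5′ to 3′ over the 250 bases before the annotated start, Fabp6 from chr10:28569728-28569977 on the minus strand and Slc51a from chr11:81803891-81804140 on the plus strand. Capitals mark the stretch closest to AGGTCANTGACCT, which reads the same on both strands, so that 1 search covers both.
Fabp6: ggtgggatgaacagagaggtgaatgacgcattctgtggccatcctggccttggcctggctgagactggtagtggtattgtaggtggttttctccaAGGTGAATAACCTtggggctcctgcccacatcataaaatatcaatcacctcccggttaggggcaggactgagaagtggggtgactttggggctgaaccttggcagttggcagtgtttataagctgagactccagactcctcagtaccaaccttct
Slc51a: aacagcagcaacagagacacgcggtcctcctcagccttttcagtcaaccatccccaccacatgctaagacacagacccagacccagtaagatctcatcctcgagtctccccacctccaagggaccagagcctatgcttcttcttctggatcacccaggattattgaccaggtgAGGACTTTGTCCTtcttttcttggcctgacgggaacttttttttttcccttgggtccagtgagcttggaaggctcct

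The stretch in the Fabp6 promoter matched 10 of the 12 scored bases and began 155 bases before the start. Over the whole window searched (300 bases, with 50 after the start), 1.51% of 33469 promoters held a match as good. The best match of Slc51a, 9 of 12 bases, was reached by 12.4% of promoters, and so was the best match of Slc51b. Slc10a2 and Nr0b2 had at most 8 matching bases, which 57.7% of promoters reached. The promoter of Nr1h4 was not examined. Sequence farther than 250 bases before the start was not searched, so closer matches there would have been missed. A match in sequence is a description and says nothing on binding in these rats.

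Fabp6 was the tested member that differed most from rat to rat. Its log2 intensity was 7.89, 6.67 and 5.46 in vehicle rats 1 to 3. It was 3.26 and 4.23 in the rats at 30 mg/kg, and 7.61, 4.86 and 4.07 in those at 100 mg/kg. The rats at 200 mg/kg gave 5.82 and 2.05. The lowest of these lay under 3.18, the 10th percentile of all values, where differences have little meaning. Both rats at 30 mg/kg were below all vehicle rats, whereas the groups at 100 and 200 mg/kg overlapped vehicle. Rat 1 at 100 mg/kg stood near the highest vehicle rat.

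The group means of Fabp6 were 6.67 ± 1.22 (SD, n = 3) in vehicle, 3.75 ± 0.69 (n = 2) at 30 mg/kg, 5.51 ± 1.85 (n = 3) at 100 mg/kg and 3.94 ± 2.66 (n = 2) at 200 mg/kg. No neighbours in the order vehicle, 100, 200 and 30 mg/kg differed beyond the spread between rats. At 30 mg/kg the fitted log2 fold change was -2.93 (SE 1.30, 95% confidence interval -5.88 to 0.02), with adjusted p = 1 in limma. Because both rats at that dose lay near 3.18, no fold on the linear scale is given. At 200 mg/kg it was -2.74 (SE 1.30, interval -5.69 to 0.21, adjusted p = 0.435), and at 100 mg/kg -1.16 (SE 1.16, interval -3.80 to 1.48, adjusted p = 0.593). An exact permutation test of any difference between the 4 groups gave p = 0.287 (two-sided by construction of the F ratio, over 25200 assignments of rats to groups).

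Single rats moved these values. Without rat 1 at 200 mg/kg the change at that dose was -4.62, and without rat 2 it was -0.86. At 100 mg/kg the change was -2.21 without rat 1, -0.44 without rat 3, -0.55 without vehicle rat 1 and -1.77 without vehicle rat 3. At 30 mg/kg it stayed between -3.54 and -2.32 whichever rat was left out.

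**Figure D1:**
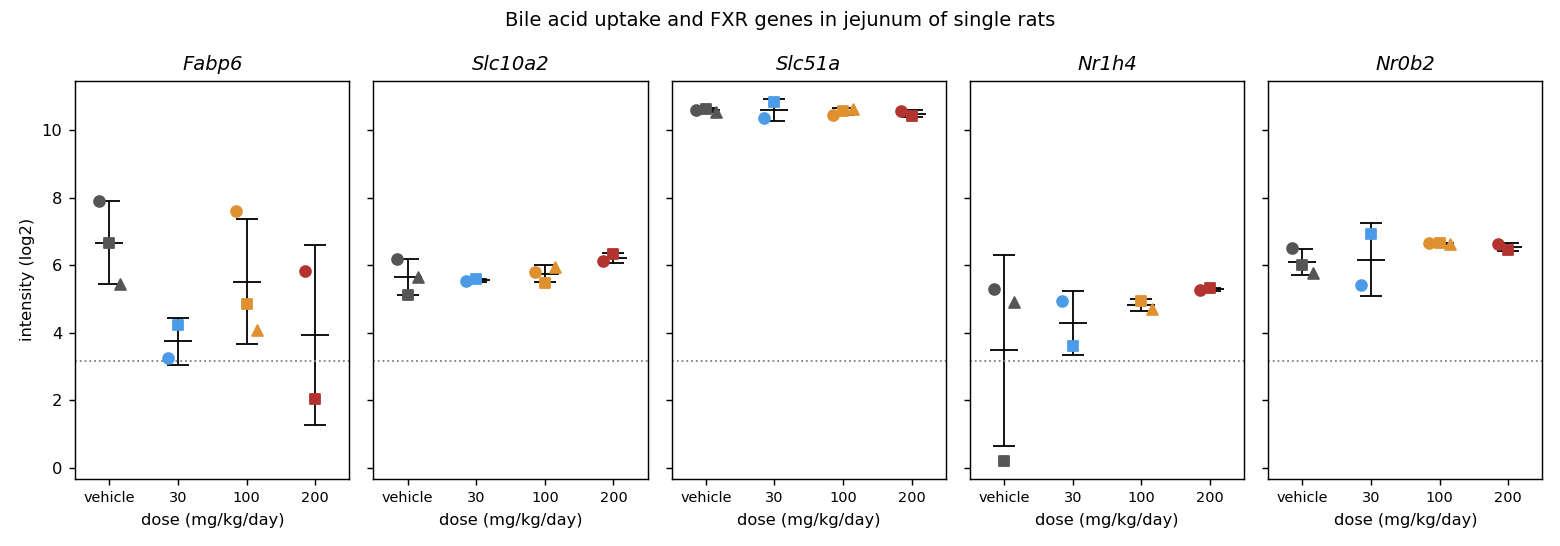
Log2 intensity of the 5 measured genes in each rat (circle, square and triangle for rats 1, 2 and 3) by dose in mg/kg/day, with the group mean and SD as a bar; the dotted line is the 10th percentile of all values, and 1 blank value of Nr1h4 at 100 mg/kg is not drawn. Fabp6 ran from 2.05 to 7.89, whereas Slc51a stayed between 10.36 and 10.82.

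Slc10a2, the uptake transporter, varied far less than Fabp6. Its log2 intensity was 6.18, 5.13 and 5.65 in vehicle rats, and 5.52 and 5.59 at 30 mg/kg. It was 5.80, 5.47 and 5.96 at 100 mg/kg, and 6.12 and 6.33 at 200 mg/kg. Both rats at 200 mg/kg were above all rats at 30 and at 100 mg/kg, but vehicle rat 1 lay between them. The means ran from 5.56 ± 0.05 (SD, n = 2) at 30 mg/kg and 5.65 ± 0.53 (n = 3) in vehicle to 5.75 ± 0.25 (n = 3) at 100 mg/kg and 6.22 ± 0.15 (n = 2) at 200 mg/kg, an order in which neighbours were not separated by limma. The largest log2 fold change against vehicle was 0.57 at 200 mg/kg (SE 0.28, interval -0.07 to 1.22, adjusted p = 0.450). Of all probe sets tested, 14.2% had both rats at 200 mg/kg above all rats at 100 mg/kg, and 23.9% had them above both rats at 30 mg/kg. The exact permutation test over the 4 groups gave p = 0.329.

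Slc51a, the subunit of the export transporter that was measured, was the steadiest member. Its log2 intensity was 10.60, 10.64 and 10.52 in vehicle rats and 10.36 and 10.82 at 30 mg/kg. It was 10.43, 10.58 and 10.64 at 100 mg/kg, and 10.57 and 10.41 at 200 mg/kg. All 4 groups overlapped. The log2 fold changes against vehicle were 0.00 (SE 0.16, interval -0.37 to 0.38), -0.04 (SE 0.15, interval -0.37 to 0.29) and -0.10 (SE 0.16, interval -0.47 to 0.27) at 30, 100 and 200 mg/kg, so that a level under 0.72 times or over 1.30 times that of vehicle lay outside all 3 intervals. The exact permutation test gave p = 0.889.

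Nr1h4, the receptor FXR itself, was too dim to enter the test. Its log2 intensity was 5.31, 0.22 and 4.92 in vehicle rats, and 4.96 and 3.62 at 30 mg/kg. At 100 mg/kg rat 1 was blank and the others gave 4.94 and 4.70. The rats at 200 mg/kg gave 5.26 and 5.32. The value of vehicle rat 2 lay under the 10th percentile, and the blank holds no value. The remaining 8 rats lay between 3.62 and 5.32 with all groups overlapping vehicle. With no filter on dim probe sets, limma gave log2 fold changes of 0.80, 1.33 and 1.80 at the 3 doses, each with an SE of 1.47. These changes include the low value of vehicle rat 2 and leave out the blank. With both raised to the 10th percentile the means were 4.47 in vehicle, 4.29 at 30, 4.27 at 100 and 5.29 at 200 mg/kg. The means at 30 and 100 mg/kg then lay below vehicle. The exact permutation test gave p = 0.885 over the 9 rats with a value, and p = 0.634 with the raised values.

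Nr0b2, the repressor that FXR induces, was at 6.52, 6.0 and 5.77 (log2) in vehicle rats. It was at 5.40 and 6.93 at 30 mg/kg, which are the lowest and the highest of all rats. The 3 rats at 100 mg/kg lay close together at 6.66, 6.66 and 6.63, and the rats at 200 mg/kg were at 6.64 and 6.45. All rats at 100 mg/kg were above every vehicle rat, as was so for 11.6% of all probe sets tested. The log2 fold changes were 0.07 (SE 0.39), 0.55 (SE 0.35, interval -0.25 to 1.35, adjusted p = 0.405) and 0.45 (SE 0.39) at 30, 100 and 200 mg/kg. The exact permutation test gave p = 0.498, and p = 0.05 without rat 2 at 30 mg/kg.

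None of the 4 tested members was called in limma at an adjusted p of up to 0.05 at any dose against vehicle, nor between 100 and 30, 200 and 100 or 200 and 30 mg/kg. Calls were rare over all probe sets. Against vehicle they made up 0.0113% (30 mg/kg), 0.0113% (100 mg/kg) and 0.0226% (200 mg/kg), and between doses 0.56% for 100 against 30 mg/kg, 0.0226% for 200 against 100 mg/kg and 0.0339% for 200 against 30 mg/kg. No member reached an unadjusted p of 0.05 in any of the 3 comparisons with vehicle, against 4.66%, 18% and 12.4% of probe sets at 30, 100 and 200 mg/kg. Fabp6 at 30 mg/kg came nearest, with an unadjusted p of 0.0514 in limma. Both rats of a group lay below all vehicle rats at 30 mg/kg, as Fabp6 did, for 9.56% of probe sets. With arrays weighted by their estimated quality, 2 members were called at 100 mg/kg, Slc10a2 (log2 fold change 0.54, adjusted p = 0.0294) and Nr0b2 (0.65, adjusted p = 0.0387). That setting called 39.7% of all probe sets and gave vehicle rat 2 a weight of 8.55 against 0.27 to 1.65 for the other rats.

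**Figure D2:**
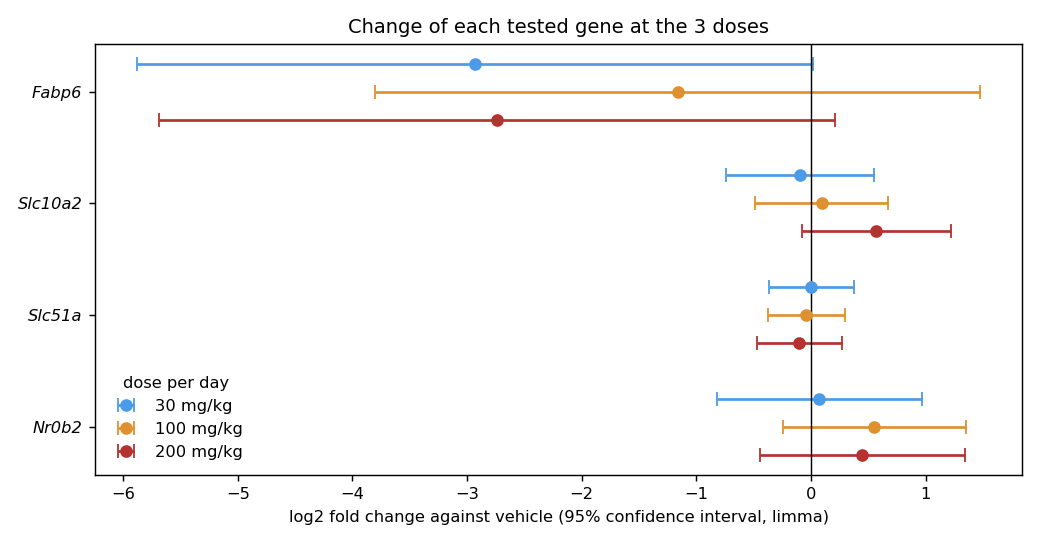
Log2 fold change against vehicle (points) with its 95% confidence interval in limma (lines) for the 4 tested genes at 30, 100 and 200 mg/kg/day. All 12 intervals include 0, and those of Fabp6 are the widest, from -5.88 to 0.02 at 30 mg/kg.

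The members differed widely in their spread among rats. The SD of Fabp6 over the 10 rats was 1.88 (log2), larger than that of 99.8% of the tested probe sets, whose median SD was 0.29. With its lowest value raised to the 10th percentile the SD of Fabp6 was 1.69, for which no rank was computed. Fabp6 was among the dimmer probe sets tested, with a mean of 5.19 where the lowest mean kept was 4.89. Its highest and lowest values differed 57.3-fold, or 26.3-fold with the lowest raised to the 10th percentile. Within groups its pooled SD was 1.70, larger than in 99.7% of probe sets. Nr1h4, which did not pass the filter, had an SD of 1.64, or 0.87 with its blank and its lowest value raised to the 10th percentile, and a pooled SD within groups of 1.84. The SD was 0.48 for Nr0b2 (larger than 81.3%), 0.37 for Slc10a2 (larger than 67.8%) and 0.13 for Slc51a (larger than 8.89%). The highest and lowest rats differed 2.88-fold in Nr0b2, 2.31-fold in Slc10a2 and 1.38-fold in Slc51a.

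Fabp6 did not follow the other tested members over the 10 rats. Pearson's r, given as a description over the same 10 arrays, was -0.03 for Fabp6 and Slc10a2, 0.13 for Fabp6 and Slc51a, and 0.18 for Fabp6 and Nr0b2. Vehicle rat 1 was highest in Fabp6 and near the top in Slc10a2, but rat 2 at 200 mg/kg was lowest in Fabp6 and highest in Slc10a2. Other pairs ran closer, with r = 0.60 (rho = 0.62) for Slc10a2 and Nr1h4, where dim values of Nr1h4 are included, 0.54 (rho = 0.45) for Slc51a and Nr0b2, and 0.39 (rho = 0.03) for Slc10a2 and Nr0b2.

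As a sign of place along the gut, Fabp6 was set beside markers of the distal and proximal small intestine. Of the 14 distal entries, 9 were measured and all 9 were tested. None was called at any dose. Gcg, which encodes proglucagon of the L cells, was at 7.14, 5.52 and 5.02 in vehicle rats and at 3.43 and 3.33 at 30 mg/kg. It was at 7.29, 7.18 and 7.52 at 100 mg/kg, and at 7.15 and 6.42 at 200 mg/kg. As with Fabp6, and as in 9.56% of all probe sets, both rats at 30 mg/kg were below all vehicle rats, at levels near 3.18 (log2 fold change -2.51, unadjusted p = 0.0012, adjusted p = 0.778 in limma). Unlike Fabp6, Gcg was high in all rats at 100 mg/kg (1.44, adjusted p = 0.212).

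Other distal markers did not share the spread of Fabp6. Nts (neurotensin) lay between 8.49 and 9.75, and Cubn (cubilin, the ileal receptor for intrinsic factor) between 9.36 and 10.63. Guca2a (guanylin) was 0.89 higher at 100 mg/kg and Osr2 0.70 lower at 200 mg/kg on the log2 scale (adjusted p = 0.194 and 0.322). The mean score of the 9 distal markers, the log2 difference from the mean of the 10 rats, ran from -0.33 to 0.38 in vehicle and from -0.52 to -0.12 at 30 mg/kg. It ran from 0.11 to 0.35 at 100 mg/kg and from -0.01 to 0.03 at 200 mg/kg. Summed intensities of these markers were 8377 to 11768, 8422 to 10322, 10867 to 11882 and 10369 to 11579 in the same order.

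Of the 17 entries for proximal intestine, 15 were measured and 13 tested, with none called. Pdx1, a factor of duodenum and pancreas, was blank in 7 of 10 rats and under 3.18 in the others, and Trpv6, a calcium channel, did not pass the filter. Gata4, a transcription factor of proximal intestine that in mice holds down ileal genes such as Slc10a2, was between 8.85 and 9.41, with log2 fold changes of -0.15, 0.23 and 0.16 at the 3 doses. Cybrd1, the duodenal ferric reductase, was 0.51 higher at 100 mg/kg, and Slc40a1, the iron exporter ferroportin, 0.82 higher (adjusted p = 0.189 and 0.267). The incretin gene Gip was 0.73 lower at 30 mg/kg (adjusted p = 0.904). Fabp1, of the liver-type fatty acid binding protein, lay between 12.88 and 13.36. Fabp2, its intestinal relative, lay between 12.27 and 12.87.

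Scores of distal, proximal, enterocyte, smooth muscle and liver markers were related to the 4 tested members over the 10 rats, 20 relations in all, with permutation tests (100000 resamples, two-sided) and Benjamini-Hochberg adjustment over the 20. Fabp6 and the distal score gave r = 0.36 (permutation p = 0.307, adjusted 0.681; rho = 0.37, p = 0.296, adjusted 0.658), and without the 2 rats farthest from the median distal score r was -0.18. Fabp6 and the proximal score gave r = -0.32 (permutation p = 0.374, adjusted 0.747; rho = -0.41, p = 0.248, adjusted 0.658), and 0.05 without 2 rats. Slc10a2 gave r = 0.44 with the distal score (permutation p = 0.201, adjusted 0.502; rho = 0.41, p = 0.250, adjusted 0.658), and 0.25 without 2 rats. With the enterocyte score it gave r = 0.46 (permutation p = 0.181, adjusted 0.502; rho = 0.43, p = 0.220, adjusted 0.658). Its largest r was with smooth muscle markers, at -0.58 (permutation p = 0.0826, adjusted 0.330; rho = -0.30, p = 0.408, adjusted 0.742), and -0.56 without 2 rats. None of the 20 relations passed an adjusted p of 0.05.

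Fabp6 gave a larger r with transcripts of liver, which did not pass the adjusted threshold. With the liver marker score, r was 0.80 (permutation p = 0.00584, adjusted 0.103; rho = 0.81, p = 0.00697, adjusted 0.139). It was 0.74 without the 2 farthest rats and 0.83 after group means were removed. Of 17 liver entries 16 were measured and 12 tested, and none was called. Their summed intensity ran from 1513 to 5301 in vehicle, 552 to 1773 at 30 mg/kg, 761 to 3138 at 100 mg/kg and 608 to 3132 at 200 mg/kg. Alb was 11.43, 10.00 and 9.72 in vehicle, 9.94 and 6.99 at 30 mg/kg, 10.74, 7.98 and 7.84 at 100 mg/kg, and 10.75 and 6.41 at 200 mg/kg. Ambp and Hpx, also liver transcripts, were blank in rat 2 at 30 mg/kg, rats 2 and 3 at 100 mg/kg and rat 2 at 200 mg/kg. The part of these transcripts in the differences of Fabp6 was not tested.

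T and B cell markers were set beside Fabp6 after the values had been seen, so that relation is given as a description over the 10 rats with no test. With their score r was 0.79 (rho = 0.68). One of the 5 scored genes, Pou2af1, is also among the genes most like Fabp6, and without it r was 0.65. The markers did not behave alike. Among B cell genes r with Fabp6 was 0.92 for Pou2af1 and 0.89 for Ms4a1 (CD20), but it was -0.06 for Jchain, the joining chain of secreted antibodies in plasma cells. Among T cell genes it was 0.61 for Cd3g and 0.05 for Cd3e. Blanks and low values stood at the 10th percentile in these r. They were 2 blanks and 1 low value of Pou2af1, the value of Ms4a1 in rat 2 at 30 mg/kg, and the lowest value of Fabp6.

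Ms4a1 was 7.29, 5.99 and 4.79 in vehicle rats, and 3.36 and 1.44 at 30 mg/kg. It was 7.60, 5.63 and 5.05 at 100 mg/kg, and 5.68 and 4.43 at 200 mg/kg. Vehicle rat 1 and rat 1 at 100 mg/kg were the 2 highest rats in Ms4a1 and in Fabp6 alike. Jchain was 8.90, 8.53 and 9.50 in vehicle rats, and 8.75 and 8.17 at 30 mg/kg. It was 10.72, 10.49 and 10.83 at 100 mg/kg, and 9.16 and 10.19 at 200 mg/kg. Its 3 rats at 100 mg/kg were thus all high, where only rat 1 was high in Fabp6 (log2 fold change of Jchain 1.70, adjusted p = 0.121 in limma). Cd3g, a chain of the T cell receptor complex, was 0.69, 0.73 and 0.79 lower at the 3 doses (adjusted p = 1, 0.186 and 0.262). Cd3e, another T cell gene, was 0.22 lower at 30 mg/kg but went the other way at the upper doses. It was 0.28 higher at 100 mg/kg and 0.52 higher at 200 mg/kg (adjusted p = 0.521 and 0.461 in limma). Cd79b was blank in vehicle rat 3, in both rats at 30 mg/kg and in rat 2 at 200 mg/kg, and Pou2af1 in rat 2 at 30 mg/kg and rat 2 at 200 mg/kg. Of 10 entries 9 were measured and 5 tested, with none called. Summed intensities were 1040 to 1607 in vehicle, 660 to 931 at 30 mg/kg, 1963 to 2686 at 100 mg/kg and 1147 to 1614 at 200 mg/kg. At 100 mg/kg these sums came mostly from Jchain, the brightest listed gene there. The next brightest, Cd3g, lay between 8.24 and 8.42 (log2) at that dose. In each of the 4 groups rat 1 had the highest score of T and B cell markers and of liver markers. The same rat was highest in Fabp6 in 3 of the 4 groups, the exception being 30 mg/kg. The part of B cell transcripts in the differences of Fabp6 was not tested.

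**Figure D3:**
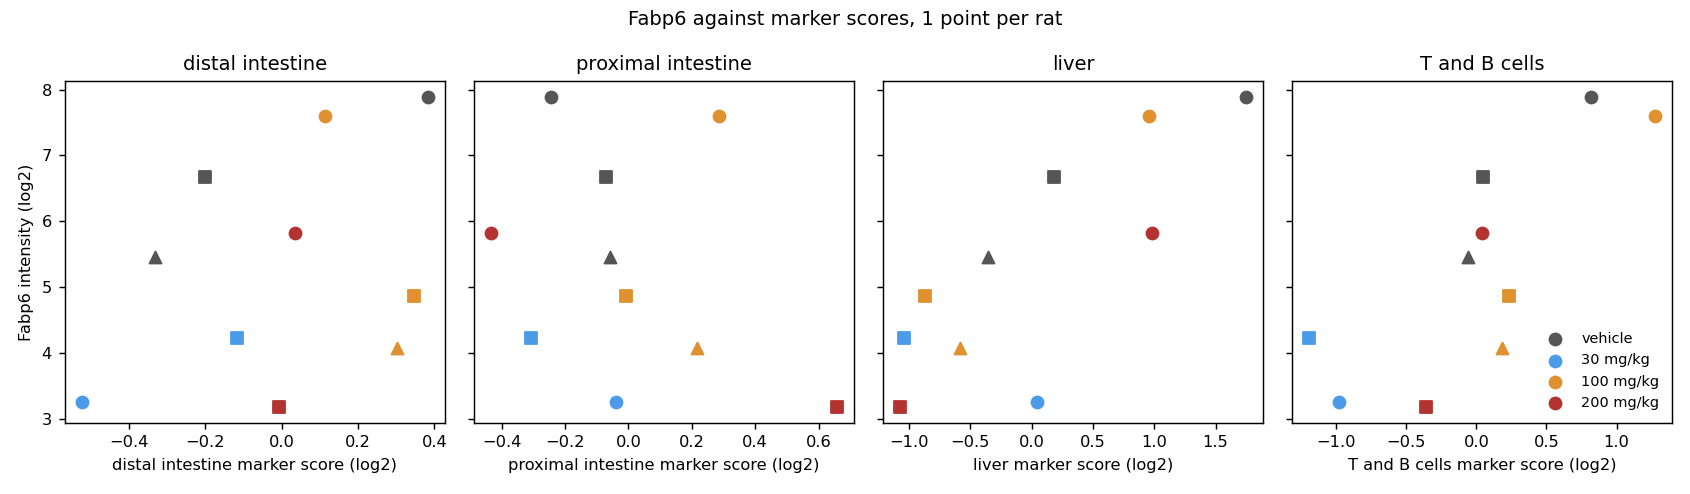
Log2 intensity of Fabp6 (the lowest value drawn at 3.18, the 10th percentile) against the mean marker scores of distal intestine, proximal intestine, liver, and T and B cells (log2 difference from the mean of the 10 rats), with 1 point per rat, colours for dose groups and circle, square and triangle for rats 1, 2 and 3. Pearson's r was 0.36, -0.32, 0.80 and 0.79 from left to right.

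The genes whose levels were most like those of Fabp6 were found by Pearson's r over the 10 rats among 10219 genes, each by its brightest probe set. These were Fcmr (r = 0.95), Ltb (0.95), Cxcl13 (0.95), Clu (0.94), Rilpl2 (0.92), Ighvl1 (0.92), Pou2af1 (0.92) and C1h11orf58 (0.89). Fcmr encodes the Fc receptor for IgM, Ltb lymphotoxin beta, Cxcl13 the chemokine that draws B cells into follicles, and Pou2af1 a coactivator of B cells. Clu encodes clusterin, a secreted chaperone. After group means were removed r stayed between 0.79 and 0.98.

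Because these genes were picked by their likeness to Fabp6 over the same rats, shared peaks follow from the choice and are given as description. The log2 intensity of Cxcl13 was 8.08, 7.2 and 6.86 in vehicle rats, and 5.81 and 5.27 at 30 mg/kg. It was 8.24, 6.80 and 6.02 at 100 mg/kg, and 7.08 and 5.33 at 200 mg/kg. The rats that were high in Fabp6, vehicle rat 1 and rat 1 at 100 mg/kg, were highest in Cxcl13. Fcmr (5.29 to 8.02), Ltb (4.27 to 7.09), Clu (7.00 to 9.28) and Ighvl1 (5.80 to 8.98) also peaked in rat 1 at 100 mg/kg, with vehicle rat 1 second.

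**Figure D4:**
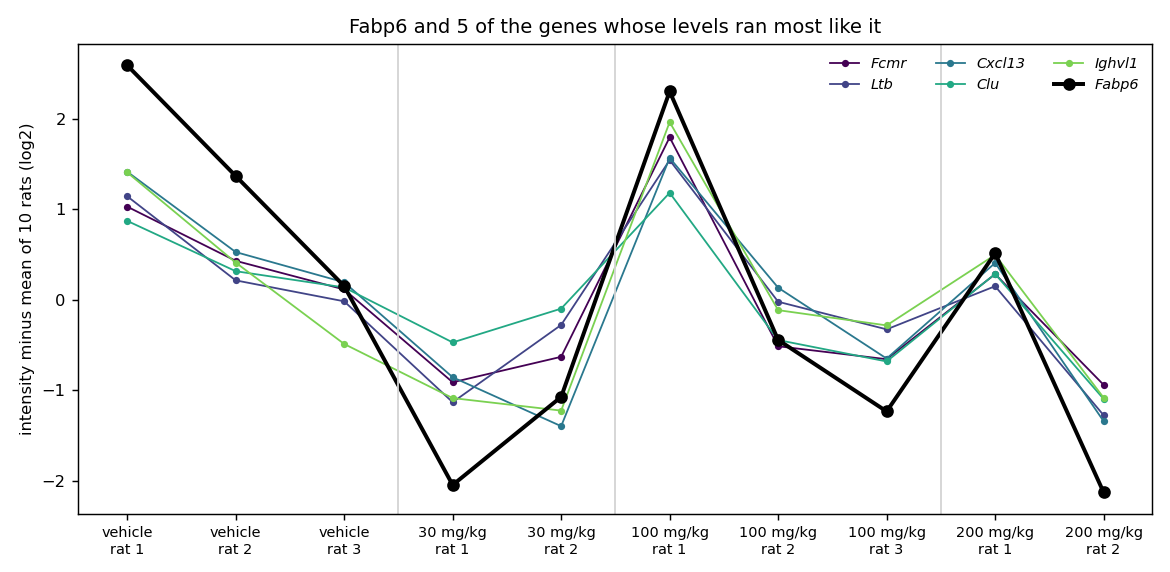
Log2 intensity minus the mean of the 10 rats for Fabp6 (black, lowest value at the 10th percentile) and 5 of the 8 genes most like it, by rat; lines only join the values of a gene, and grey lines part the dose groups. Vehicle rat 1 and rat 1 at 100 mg/kg are the 2 highest rats in the 6 genes drawn. Shared peaks follow from the choice of genes by their likeness to Fabp6. Of the 8 genes, C1h11orf58 is not drawn and did not share this, with 8.17 in rat 1 at 100 mg/kg against 8.21 in vehicle rat 2.

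The genes most like Slc10a2 were others. They were Arfgef1 (r = 0.91), Efl1 (0.90), Sec31a (0.90), Vcf1 (0.89), Slc43a2 (0.88), Slc7a11 (0.87), Chpf2 (0.87) and Tbc1d15 (0.86). Slc43a2 and Slc7a11 encode amino acid transporters, and Sec31a a coat protein of vesicles leaving the endoplasmic reticulum. Slc43a2 was 9.90, 9.1 and 9.48 in vehicle rats, 9.52 and 9.87 at 30 mg/kg, 9.76, 9.72 and 9.82 at 100 mg/kg, and 9.99 and 10.25 at 200 mg/kg. Its lowest rat, vehicle rat 2, and its highest, rat 2 at 200 mg/kg, were also those of Slc10a2, by whose levels it was picked.

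Nr0b2 ran with the distal score at r = 0.76 (permutation p = 0.0103, adjusted 0.103; rho = 0.59, p = 0.0815, adjusted 0.543), and at 0.65 without the 2 farthest rats. It also ran with the enterocyte score, at r = 0.63 (permutation p = 0.0528, adjusted 0.264; rho = 0.37, p = 0.294, adjusted 0.658), and at 0.63 without 2 rats. The relation was thus not particular to distal markers. With smooth muscle markers r was -0.70 (permutation p = 0.0235, adjusted 0.156; rho = -0.64, p = 0.0552, adjusted 0.543), and -0.33 without 2 rats. All 12 smooth muscle markers were below vehicle in their means at 100 mg/kg (median log2 fold change -0.96) and at 200 mg/kg (-0.66), where the medians over all probe sets were 0.01. Their summed intensity was 17689 to 28280 in vehicle, 25364 to 31063 at 30 mg/kg, 13707 to 13876 at 100 mg/kg and 13942 to 18515 at 200 mg/kg. None was called, the lowest adjusted p at 100 mg/kg being 0.115 for Lmod1 (-1.45). Nr0b2, Slc10a2 and Nr1h4 had their highest means at 100 or 200 mg/kg, where muscle transcripts were low, and the part of muscle content in these means was not tested.

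Downstream of the members, the FXR signal to the liver runs through an enterocyte hormone, Fgf15 in rodents, which the annotation of the array names Fgf19. It was blank in 8 of 10 rats and 2.19 and 2.24 (log2) in the others, both values under the 10th percentile. Of the 14 entries listed with this signal 9 were measured and 5 tested, with none called. The 5 were Il18, Ang, Apoc2, Apoc3 and Pltp. Fgf19 and Fgfr4 did not pass the filter, so the hormone signal itself was not tested. Il18, a cytokine, was 0.78 higher (adjusted p = 0.332) and Pltp, the phospholipid transfer protein, 1.03 lower (adjusted p = 0.395) at 200 mg/kg. Rxra, the partner of FXR on DNA, was blank in vehicle rat 3, lay between 2.98 and 5.42 elsewhere, and did not pass the filter.

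Other transporters of bile acids, their conjugates and related lipids were read as a list. Abcc3 (MRP3, a basolateral exporter) was 6.70, 5.45 and 3.94 in vehicle rats, and 5.02 and 5.71 at 30 mg/kg. It was 6.94, 6.44 and 6.52 at 100 mg/kg, and 7.34 and 7.24 at 200 mg/kg. Both rats at 200 mg/kg were above all vehicle rats, as in 12.5% of all probe sets. Its log2 fold changes were 0.00, 1.27 and 1.93 (SE 0.65 at 200 mg/kg, adjusted p = 0.305). Abcc2 (MRP2, an apical exporter) was 0.60, 1.30 and 0.64 higher in its means at the 3 doses, with SE 0.45 and adjusted p = 0.221 at 100 mg/kg. It was 8.15, 7.41 and 7.85 in vehicle rats, 8.26 and 8.55 at 30 mg/kg, and 9.24, 8.83 and 9.26 at 100 mg/kg. The rats at 200 mg/kg stood apart, at 7.41 and 9.48. Slc27a4, a fatty acid transport protein, was 0.34 lower at 100 mg/kg (adjusted p = 0.254). Abcb11, the bile salt export pump of liver, lay between 2.96 and 4.70 and did not pass the filter. Of the 13 entries 12 were measured and 9 tested, and none was called at any dose. Their median log2 fold change was 0.14, 0.65 and 0.39 at 30, 100 and 200 mg/kg, where the median over all probe sets was 0.01.

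Of the known regulators of these genes, Hnf4a lay between 10.20 and 10.69 and Nr5a2 (LRH-1) between 7.37 and 7.84, with log2 fold changes between -0.26 and -0.07. Gata6 was 0.86 higher at 100 mg/kg (adjusted p = 0.197), Cdx1, a homeobox factor of intestine, 0.60 higher (adjusted p = 0.236) and Vdr, the vitamin D receptor, 1.35 higher (adjusted p = 0.241). Of 20 entries 17 were measured and 16 tested, with none called and with medians of -0.05, 0.16 and 0.10 at the 3 doses. Genes of bile acid synthesis, a task of the liver, were mostly under the filter, with 4 of 13 tested and none called. Among them Slc27a2, an acyl-CoA synthetase, was 0.49 higher at 100 mg/kg (adjusted p = 0.310), and Cyp27a1, a sterol hydroxylase, 0.33 higher (adjusted p = 0.547).

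Of the remaining cell types, goblet cell markers were below vehicle in 7 of 7 means at 30 mg/kg (median -0.59) and above it in 6 of 7 at 100 mg/kg (median 0.40) and 7 of 7 at 200 mg/kg (median 0.59), with none called. The median over all probe sets was 0.01 at each dose. The goblet cell score was -0.30 in rat 1 and -1.03 in rat 2 at 30 mg/kg, against -0.22 to 0.10 in vehicle. Zg16, a goblet cell lectin, was 0.73 lower, 0.77 higher and 0.71 higher in turn (adjusted p = 1, 0.194 and 0.318). Enterocyte markers had medians of 0.11, 0.15 and 0.18, and Paneth and stem cell markers of 0.13, -0.22 and -0.27. The direction of the goblet cell medians followed that of Gcg, not that of Fabp6, across the 3 doses. At 30 mg/kg, however, Gcg was low in both rats and the goblet cell score mainly in rat 2.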

How the data were processed

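The authors hybridised labelled jejunal RNA to Affymetrix RAE230 2.0 arrays and analysed them in Rosetta Resolver 7.2 with its error model; the deposited table holds log10 intensities, with background correction and scaling between arrays by the authors. How probes were summarised and arrays scaled is not given in the sources used here. A second table, with 7 columns of the authors' own fold changes per treated rat, was not used. Values were turned to log2, and blanks were left missing. The dimmest 40% of probe sets, by their mean of the 10 arrays, were left out (11823, lowest mean kept 4.89), and 17736 were fitted with 1 mean per group in limma 3.58.1 (R 4.3.3; prior SD 0.223, prior degrees of freedom 2.69), two-sided, with p-values adjusted by Benjamini-Hochberg across every probe set of a comparison and calls at an adjusted p of up to 0.05. Resolver's own test could not be rerun. The fit was tested on simulated data first. Single genes were also compared by exact permutation of rats. Gene names are those of the platform annotation, where 19952 name 1 gene, 428 several and 9179 none. Motifs were searched in RefSeq promoters (GRCr8).

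The members and the gene lists were chosen with earlier results of these data known. Named were all members, a fixed set of partners and markers (Fgf19, Rxra, Abcb11, Abcc2, Abcc3, Gata4, Hnf4a, Nr5a2, Gcg, Nts, Cubn, Fabp1 and Fabp2), up to 3 genes of each list with the smallest p at any dose, and the 8 genes most like Fabp6 and most like Slc10a2; Alb, Vil1, Ambp, Hpx, Cd79b and Cyp27a1 were named for their roles. A list's score uses the brightest probe set of each tested gene, with blanks and low values at the 10th percentile of all values (3.18, or 9.05 intensity units). Alternatives were other filters, a floor, log2 of intensity + 16, quantile normalization, array weights, fits over 2 groups only, the rat number as a block, the methods' t-test and each array left out. Samples carry no batch label.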

Additional observations from a re-analysis of the deposited data

How the results depend on the processing

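Of the 20 fold changes of the 4 tested members, 11 kept their direction under every alternative setting run for them, and 9 reversed under at least one. There were 19 settings for Slc51a and Nr0b2, and 18 for Fabp6 and Slc10a2, which fell under the filter that leaves out the lowest 60% of probe sets. The changes of Fabp6 against vehicle kept their direction, and no count of called members changed other than the 2 at 100 mg/kg with array weights. With array weights, Slc10a2 at 30 mg/kg turned to 0.38 and Slc51a to -0.039. The rat numbers come from different animals and were not taken to pair them: over 13 pairs of like number the correlation of deviations from group means ran from -0.31 to 0.24, and 4 were over 0.1. In a group of 2 rats the deviations mirror each other, so the pairs are not independent. Rats 1 and rats 2 at 30 and 200 mg/kg both gave 0.24 for that reason. With the rat number as a block, 0 members were called in each comparison, Fabp6 changed by -3.59 at 30 mg/kg (unadjusted p = 0.0073 in place of 0.0514, adjusted p = 0.958 in limma) and by -3.40 at 200 mg/kg (unadjusted p = 0.0094 in place of 0.0651, adjusted p = 0.462), and Nr0b2 at 30 mg/kg turned to -0.015. With low values at the 10th percentile Fabp6 at 200 mg/kg was -2.18, and with intensity + 16 it was -1.67.

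Leaving out 1 array at a time, the log2 fold change at 30 mg/kg ran from -0.36 to 0.17 for Slc10a2, -0.23 to 0.24 for Slc51a and -0.69 to 0.83 for Nr0b2. At 100 mg/kg it ran from -0.17 to 0.36 for Slc10a2 and -0.083 to 0.018 for Slc51a. For 100 against 30 mg/kg it ran from -0.27 to 0.19 for Slc51a and -0.28 to 1.24 for Nr0b2. For 200 against 100 mg/kg it ran from -3.46 to 0.31 for Fabp6 and -0.14 to 0.019 for Slc51a. The exact permutation p of Nr0b2 ran from 0.05 to 0.802, and the lowest was without rat 2 at 30 mg/kg. The cause of these shifts was not tested. With 2 or 3 rats a group, the intervals of Fabp6 span several log2 units, and levels near or under 3.18 have no order, which limits Fabp6, Nr1h4 and Fgf19 most.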
